A study of Mus musculus with 6 samples.

Results

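The 10 interferon-inducible GTPase genes described here were measured in blood neutrophils of tumour-bearing mice: the guanylate-binding protein (GBP) genes Gbp2, Gbp3, Gbp5, Gbp7 and Gbp9 and the immunity-related GTPase (IRG) genes Irgm1, Irgm2, Igtp, Ifi47 and Iigp1. The 10 genes were listed by name, out of 35853 genes in the deposited tables, and the values of each gene are sums over its annotated transcripts. Blood had been drawn from wild-type BALB/C mice 4 weeks after 4T1 cells, a mouse mammary carcinoma line, were placed orthotopically. After lysis of red cells, neutrophils positive for the surface protein Ly6G were split by how much surface Ly6C they carried, and 3 libraries of poly(A) RNA were made from Ly6C-high cells and 3 from Ly6C-low cells. All 6 libraries thus came from tumour-bearing wild-type animals, and no group without a tumour was analysed here. Neither the age and sex of the mice nor the number of animals behind the libraries is in the labels. If 1 mouse or pool gave several libraries, the spread that the p-values rest on is technical. The comparison asked whether transcript levels of these GTPases differed between the Ly6C-high and the Ly6C-low cells.

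GBPs and IRGs are GTPases that most mouse cells make in quantity only after interferon reaches them. GBPs assemble on the membranes of vacuoles that hold parasites or bacteria and on bacteria that reach the cytosol, and they promote the caspase-11 and AIM2 inflammasomes. Among the IRGs, Irgm1, Irgm2 and Igtp (also called Irgm3) sit on the cell's own membranes and restrain the effector IRGs, to which Iigp1 (Irga6) and Ifi47 (Irgd) belong and which load onto pathogen vacuoles. Interferon-gamma acts on genes through promoter elements called GAS, and type I interferons act through elements called ISRE, which a complex with STAT2 and IRF9 binds and to which IRF1 also binds.

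Promoter entries of the members were searched for letter matches to these elements. RefSeq promoter entries on build GRCm38.p6 were taken by symbol for 8 of the 10 members, with 9 entries in all because Gbp3 had a pair. Gbp9 had no entry, and Iigp1 was left out of this scan. In the 250 bases before each start, both strands were searched for an ISRE core, GAAA followed after 2 bases of any kind by GAAA (TTTC, 2 bases and TTTC on the other strand), and for the GAS core TTCNNNGAA, which reads the same on both strands. An ISRE core was present in 7 of the 8 members, against 2.98% of 32851 promoter entries and 3.46% of the 27025 genes that have one. A GAS core was present in 4 members, Gbp5, Gbp7, Igtp and Irgm2, against 7.02% of entries and 8.13% of genes. Ifi47 had neither core in its entry, and the downstream entry of the Gbp3 pair also had neither. Of 8 other GBP and IRG genes whose entries were searched, 4 had an ISRE core and 3 had a GAS core. For Ifi47 and Irgm2 the entry does not lie at the start of the transcript with the most counts, as described below. The 7 member sequences with an ISRE core are printed here because they hold matches to these cores. They run 5′ to 3′ on the strand of the gene, and each is the 170 bases that end just before the start. The letters of ISRE and GAS matches are in capitals. The genome assembly is not of a BALB/C mouse, and differences between strains were not examined.

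Gbp2: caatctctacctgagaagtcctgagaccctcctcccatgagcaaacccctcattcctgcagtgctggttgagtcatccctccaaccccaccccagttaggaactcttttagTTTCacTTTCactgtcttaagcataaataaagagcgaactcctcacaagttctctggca
Gbp3: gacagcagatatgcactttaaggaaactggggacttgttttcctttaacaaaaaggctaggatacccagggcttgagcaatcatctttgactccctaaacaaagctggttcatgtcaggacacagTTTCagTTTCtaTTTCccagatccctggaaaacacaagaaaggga
Gbp5: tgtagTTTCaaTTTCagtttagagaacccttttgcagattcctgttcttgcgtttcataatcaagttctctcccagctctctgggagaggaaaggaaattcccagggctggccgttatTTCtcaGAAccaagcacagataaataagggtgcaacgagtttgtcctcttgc
Gbp7: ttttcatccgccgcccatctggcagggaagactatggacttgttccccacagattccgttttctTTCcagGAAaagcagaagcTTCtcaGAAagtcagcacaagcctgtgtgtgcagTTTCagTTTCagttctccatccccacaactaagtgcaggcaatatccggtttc
Irgm1: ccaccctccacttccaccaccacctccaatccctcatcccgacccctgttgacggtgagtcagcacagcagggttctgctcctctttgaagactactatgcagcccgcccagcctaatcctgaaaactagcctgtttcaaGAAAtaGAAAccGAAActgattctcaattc
Igtp: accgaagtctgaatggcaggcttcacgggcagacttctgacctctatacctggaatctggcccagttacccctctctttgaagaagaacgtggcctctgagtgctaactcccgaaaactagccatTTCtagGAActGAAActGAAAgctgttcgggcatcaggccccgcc
Irgm2: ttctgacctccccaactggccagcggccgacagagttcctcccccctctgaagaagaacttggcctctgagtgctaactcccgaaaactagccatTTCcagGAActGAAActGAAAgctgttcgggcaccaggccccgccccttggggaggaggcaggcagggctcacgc

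These stretches lie on build GRCm38.p6 at chr3:142620493-142620662 (Gbp2, plus strand), chr3:142559874-142560043 (Gbp3, plus strand), chr3:142496764-142496933 (Gbp5, plus strand), chr3:142530166-142530335 (Gbp7, plus strand), chr11:48871421-48871590 (Irgm1, minus strand), chr11:58199386-58199555 (Igtp, plus strand) and chr11:58214807-58214976 (Irgm2, plus strand). The first base of the ISRE core nearest the start lay 59 bases upstream in Gbp2, 39 in Gbp3, 53 in Gbp7, 24 in Irgm1, 34 in Igtp and 64 in Irgm2, and 165 upstream in Gbp5. In Gbp3 and in Irgm1 a pair of overlapping ISRE cores share letters, which gives 3 runs of capitals in a row. Gbp5 had a further GAS core that begins 245 bases upstream, outside the stretch printed. Igtp and Irgm2 carry the same arrangement, a GAS core followed after 2 bases by an ISRE core. That arrangement, TTCNNNGAA, 2 bases, GAAA, 2 bases and GAAA, was searched for after the sequences had been seen, and it was in 5 of 32851 entries (0.0152%). The 5 genes were Igtp, Irgm2, the IRG genes Tgtp1 and Tgtp2, and the predicted gene Gm12185. The upstream stretches of Igtp and Irgm2 were identical at 194 of 220 aligned columns (88.2%), so their motifs are not independent of each other. A match is a run of letters and does not show that a factor binds there.

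Transcripts of 9 of the 10 members were present in all 6 libraries, at levels that spanned more than an order of magnitude. Levels between genes are given in TPM, a scale that divides by transcript length and sums to the same total in every library. Gbp2 had the highest level, with a mean of 77.5 TPM over the 6 libraries and a range of 54.0 to 91.1 TPM, and ranked 1259 among all genes. The membrane regulators Irgm1 and Irgm2 followed with means of 30.5 TPM (27.3 to 33.6) and 28.0 TPM (25.5 to 32.1), and their ranges overlapped. Igtp, the remaining membrane regulator, had a mean of 19.7 TPM (15.8 to 24.5). Below it came the effector Ifi47 at 12.7 TPM (10.7 to 16.6) and Gbp7 at 11.98 TPM (10.2 to 14.9), and neither pair of neighbours from Igtp to Gbp7 was separated. Gbp9 at 5.33 TPM (4.26 to 7.22), Gbp3 at 3.83 TPM (1.44 to 5.26) and Gbp5 at 1.88 TPM (1.31 to 2.75) formed the low end, and again each range overlapped that of the next gene. The ranges of neighbours did not overlap between Gbp2 and Irgm1, between Irgm2 and Igtp, between Gbp7 and Gbp9, and between Gbp5 and Iigp1.

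Iigp1, an effector of the IRG family, was at the bottom. It had 1, 2 and 0 estimated counts in Ly6C-high replicates 1, 2 and 3, and 1, 1 and 3 in Ly6C-low replicates 1, 2 and 3, all of them on a transcript annotated as processed and not coding. Its 3 protein-coding transcripts had 0 counts in each of the 6 libraries, which for a count of 0 allows up to 3 counts per library, or 0.143 to 0.175 CPM, counts scaled to a common library total, at these depths. The other effector IRG among the members, Ifi47, was thus the one with measurable transcripts. Iigp1 did not pass the filter on low counts and was not tested.

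**Figure D1:**
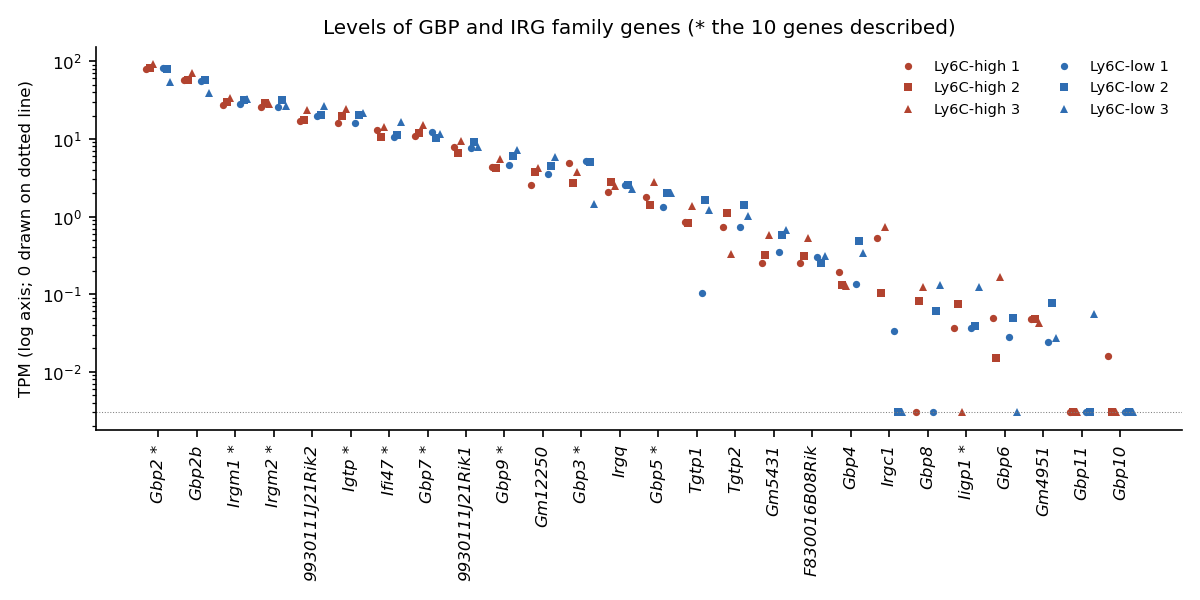
TPM in each library (vertical log axis, with 0 drawn on the dotted line) for the 10 members, marked with a star, and the 16 other GBP and IRG genes, ordered by mean level. Gbp2 and Gbp2b lie highest, Irgm1 and Irgm2 lie next, and Iigp1 lies near 0 in all 6 libraries.

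Between the Ly6C-high and the Ly6C-low cells no member passed the threshold. With edgeR's quasi-likelihood test, 0 of the 9 tested members had an adjusted p under 0.05, against 4 of 11406 genes (0.0351%). Of these genes 2 (0.0175%) were higher in Ly6C-high cells, namely Ly6c1 and Ly6c2, which encode the antigen used for sorting. At an unadjusted p under 0.05 the count was again 0 of 9, against 14.3% of all genes. DESeq2 and limma voom also placed 0 members past an adjusted p of 0.05, and DESeq2 placed 1, Gbp2, under an unadjusted p of 0.05, against 12.3% of all genes. The fitted log2 fold change, Ly6C-high over Ly6C-low, was above 0 for 8 of 9 members, against 49.2% of all genes, and the median of the members was 0.14, against -0.0044 over all genes. The count above 0 depended on the scaling and on the libraries used. With library size alone in place of TMM, 5 of 9 members (55.6%) were above 0. That scaling moved the median of all genes to -0.11, and Irgm1, Irgm2 and Ifi47, which changed sign, stayed above that median. Without Ly6C-high replicate 3 the count above 0 was 4 of 9. The 5 GBP members had a median of 0.30 and the 4 tested IRG members a median of 0.075.

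Among the GBP members, Gbp2 was the most abundant. In TMM-scaled CPM it was at 177, 174 and 200.8 in Ly6C-high replicates 1, 2 and 3 and at 173, 165 and 109 in Ly6C-low replicates 1, 2 and 3. The groups did not overlap on this scale, but the lowest Ly6C-high and the highest Ly6C-low library were almost level, and Ly6C-low replicate 3 lay far below the rest. The means were 184 ± 14.8 and 149 ± 34.9 CPM (SD, n = 3 each), and the log2 fold change was 0.30 (SE 0.16, 95% interval -0.063 to 0.66, edgeR adjusted p = 0.441). On the TPM scale the groups overlapped, at 78.4, 80.8 and 91.1 TPM against 81.8, 79.2 and 54.0 TPM. Without Ly6C-low replicate 3 the log2 fold change of Gbp2 was 0.12.

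Gbp7, a GBP of the same chromosome 3 cluster, was at 48.7, 48.8 and 61.2 CPM in the Ly6C-high libraries and at 47.0, 41.4 and 46.8 CPM in the Ly6C-low libraries. Ly6C-high replicate 3 stood above the other 5 libraries, which lay close together, and the groups did not overlap in CPM although they did in TPM. The log2 fold change was 0.23 (SE 0.11, interval -0.012 to 0.47), and its adjusted p of 0.372 (edgeR) was the smallest of any member. Gbp2 and Gbp7 were the 2 of 9 members whose groups did not overlap in CPM, both with Ly6C-high above Ly6C-low, against 10.3% of all genes in that direction and 21.1% in either.

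Gbp3 and Gbp5 had few counts and wide intervals. Gbp3 was at 8.62, 6.399 and 8.76 CPM in the Ly6C-high and at 8.44, 7.70 and 3.13 CPM in the Ly6C-low libraries, so the difference in means came with 1 low value, that of Ly6C-low replicate 3. Its log2 fold change was 0.30 (SE 0.33, interval -0.47 to 1.08), and it was -0.023 without that library. With length-scaled TPM from all 6 libraries it was 0.027. The mean TPM of Gbp3 was 3.76 in the Ly6C-high and 3.91 in the Ly6C-low libraries. Gbp5, which promotes inflammasome activity, was at 5.92, 4.59 and 9.06 CPM against 3.94, 6.02 and 5.99 CPM. Here the groups overlapped and Ly6C-high replicate 3 was the highest library. The log2 fold change of Gbp5 was 0.30 (SE 0.26, interval -0.28 to 0.88) and -0.015 without Ly6C-high replicate 3.

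Gbp9, the member on chromosome 5, was the only one of the 9 with a fitted value below 0. It was at 15.8, 15.7 and 18.3 CPM in the Ly6C-high and at 15.7, 19.5 and 21.96 CPM in the Ly6C-low libraries. The groups overlapped, with Ly6C-low replicate 1 level with the lower Ly6C-high libraries. The log2 fold change was -0.20 (SE 0.14, interval -0.50 to 0.10, edgeR adjusted p = 0.551).

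The membrane regulators of the IRG family differed little between the groups relative to the spread of the libraries. Irgm1 was at 51.5, 55.2 and 61.7 CPM in the Ly6C-high and at 49.1, 55.6 and 55.5 CPM in the Ly6C-low ones. Irgm2 was at 81.9, 92.4 and 89.3 CPM against 77.3, 95.3 and 77.4 CPM. In both genes the groups overlapped. Their log2 fold changes were 0.073 (SE 0.10, interval -0.15 to 0.29) and 0.077 (SE 0.10, interval -0.15 to 0.31), with adjusted p of 0.781 and 0.780 in edgeR. Igtp was at 27.1, 33.3 and 40.7 CPM against 26.1, 32.2 and 33.7 CPM. Replicate 1 was the lowest library in each group, and the fold change on the log2 scale was 0.14 (SE 0.15, interval -0.20 to 0.47).

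Ifi47, the effector, was at 18.2, 14.6 and 19.9 CPM in the Ly6C-high and at 14.3, 14.8 and 21.1 CPM in the Ly6C-low libraries. Its highest value was in Ly6C-low replicate 3, the library that held the lowest values of Gbp2 and Gbp3. The log2 fold change was 0.071 (SE 0.17, interval -0.30 to 0.45, edgeR adjusted p = 0.879). With library size alone or with log2(TPM + 1), the values of Irgm1, Irgm2 and Ifi47 were below 0. Those scalings moved the median of all genes to -0.11 and -0.073, and the 3 genes stayed above it.

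The intervals show what sizes of difference these libraries allow. For 6 of the 9 tested members the 95% interval lay within 1.5-fold in either direction, against 53.3% of all genes, and for 8 of 9 it lay within 2-fold, against 78.2%. Gbp3, with 59.0 to 179 estimated counts per library, was the member whose interval reached past 2-fold. The missing calls do not show that the levels were equal.

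**Figure D2:**
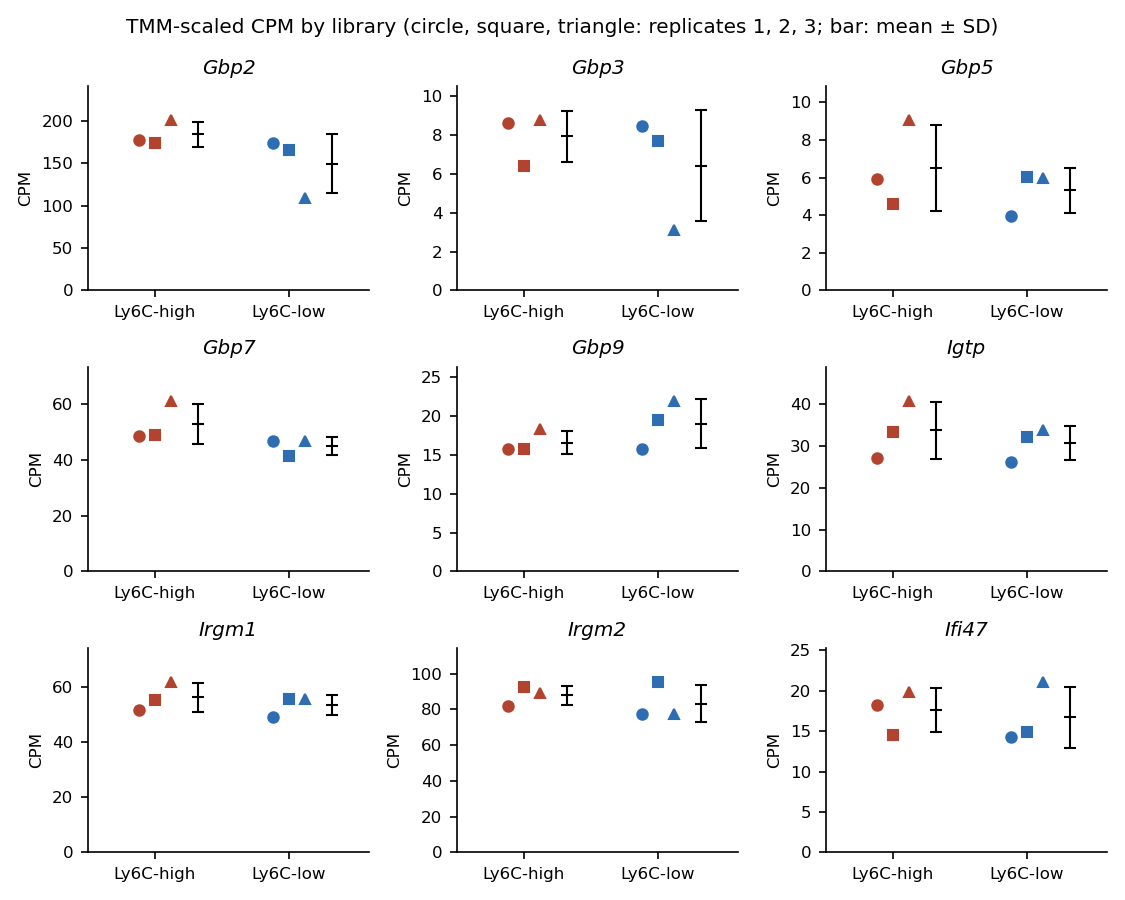
TMM-scaled CPM (vertical linear axis from 0) of the 9 tested members in each Ly6C-high (red) and Ly6C-low (blue) library, with circles, squares and triangles for replicates 1, 2 and 3 and bars for mean ± SD, n = 3. The red triangle, Ly6C-high replicate 3, is the highest red point except in Irgm2, and the blue triangle, Ly6C-low replicate 3, is far below the other blue points in Gbp2 and Gbp3.

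**Figure D3:**
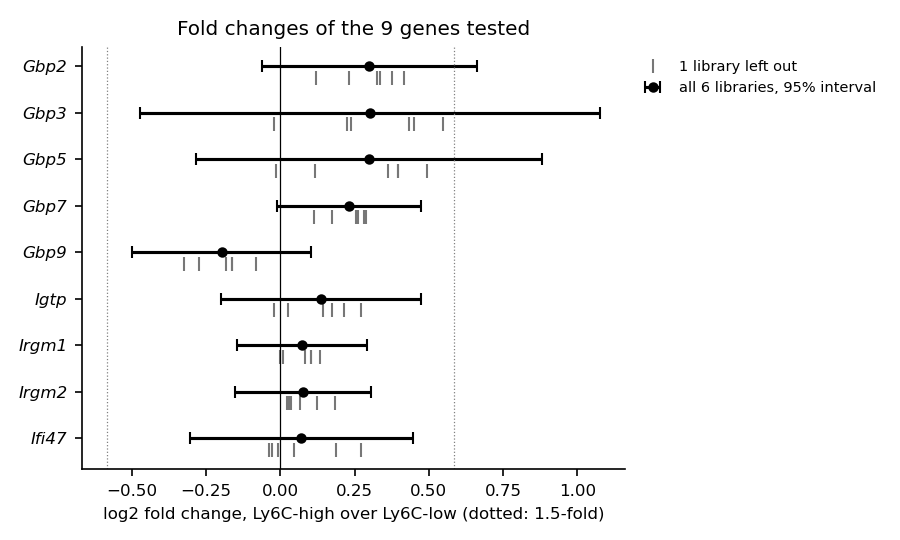
Fitted log2 fold change of each tested member, Ly6C-high over Ly6C-low, with its 95% interval (horizontal axis in log2 units). Grey ticks are the values with 1 library left out and dotted lines mark 1.5-fold. Every interval includes 0, and 8 of the 9 points lie to the right of it.

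Single libraries stood out across many members at once. Deviations were taken as the log2 CPM of a library minus the mean of that gene over the 6 libraries. Ly6C-high replicate 3 was above the mean in 9 of 9 members, by 0.28 on average. Ly6C-low replicate 1 was above it in 2 of 9, with an average of -0.13, and the other libraries averaged between -0.12 and 0.020. Ly6C-low replicate 3 split the members: Gbp3 (-1.09) and Gbp2 (-0.58) were at their lowest there, while Gbp9 (0.31) and Ifi47 (0.31) were at their highest. Gbp2b, a further GBP gene of chromosome 3 that is not one of the 10, was also at its lowest there (-0.58).

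Pearson correlations of log2 CPM over the 6 libraries describe the same pattern, and since all genes share the libraries and their scaling they carry no test. Irgm1 and Igtp had the highest value among the members (r = 0.986), and Gbp2 and Gbp3 came next (r = 0.949). Gbp2 with Gbp2b gave r = 0.985, with both at their lowest in Ly6C-low replicate 3. Gbp9 ran the other way to Gbp2 (r = -0.697) and to Gbp3 (r = -0.691). Igtp and Irgm2, whose upstream sequences are alike, had r = 0.495, and Gbp2 and Igtp had r = 0.034. The genes whose log2 CPM was most like the mean of the members, out of 6948 genes with a mean of at least 5 CPM, were Kat6a (r = 0.986), Syne2 (r = 0.975), Pigb (r = 0.972), Igsf6 (r = 0.970) and Utrn (r = 0.970). These are the highest of 6948 values over 6 libraries and are a description.

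**Figure D4:**
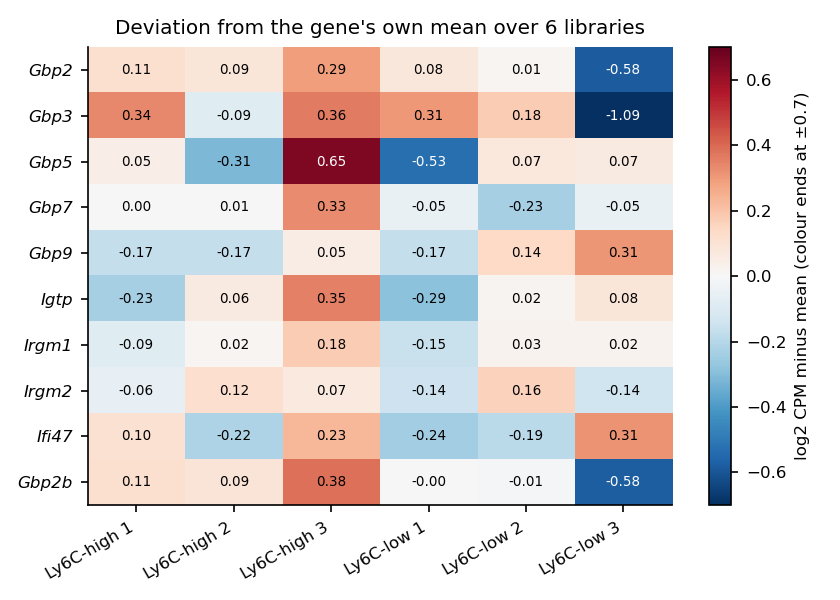
Log2 CPM of each tested member, and of Gbp2b, in each library minus its mean over the 6 libraries (colour scale and printed values in log2 units, colours ending at 0.7 either way). Ly6C-high replicate 3 is above 0 for all 9 tested members, and Ly6C-low replicate 3 ranges from its low of -1.09 in Gbp3 to 0.31 in Ifi47 and Gbp9.

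Within genes, the estimated counts were divided between annotated transcripts by the authors' software, and for several members the division differed between libraries. Gbp2 was simple: its full-length coding transcript Gbp2-201 held 99.0% to 100% of its counts. In Gbp5 the coding transcript Gbp5-201 held 8.32% to 18.5% of counts. Most of the rest was assigned to Gbp5-202, which is annotated as a target of nonsense-mediated decay, the pathway that removes transcripts with early stop codons. Gbp5-202 held 76.4%, 69.5% and 81.1% in the Ly6C-high and 42.6%, 47.0% and 79.6% in the Ly6C-low libraries. These shares rest on 79.0 to 185 estimated counts per library, and Gbp5-203, another such transcript, was at 36.8% and 30.95% in Ly6C-low replicates 1 and 2 and at 0 in replicate 3.

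In Gbp9 the main coding transcript took a smaller share in each Ly6C-low library than in any Ly6C-high library. The coding transcript Gbp9-201 held 70.6%, 66.9% and 58.6% of counts in the Ly6C-high and 41.5%, 53.0% and 24.4% in the Ly6C-low libraries. A second coding transcript, Gbp9-202, held 19.3%, 16.6% and 19.2% against 27.1%, 28.2% and 22.4%, and was higher in every Ly6C-low library. Among the 16 member transcripts with a mean share of 10% to 90%, these 2 were the ones whose groups did not overlap, against 9.84% of 14386 such transcripts of tested genes. A count of 2 of 16 is near that share and does not set the members apart. Shares of the same gene are also tied to each other, so the 2 are not separate observations. A transcript with a retained intron, Gbp9-203, held 10.1%, 16.6% and 21.3% against 31.3%, 18.8% and 52.1%, with overlap, and it was highest in Ly6C-low replicate 3. On the coding transcripts together Gbp9 had 268, 246 and 291 estimated counts in the Ly6C-high and 216, 302 and 194 in the Ly6C-low libraries, which overlapped. The higher gene-level value in Ly6C-low replicate 3 was thus held by the retained-intron transcript, at 216 of 414 estimated counts. No test was made of transcript shares.

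The IRG members were mostly on coding transcripts. Igtp-201 held 75.4% to 84.0% of the counts of Igtp, and Irgm1-202 held 64.8% to 81.7% of those of Irgm1. Irgm2-201 held 77.1% to 89.6% of the counts of Irgm2. In the GENCODE M21 annotation that transcript starts 62 bases from the start of Igtp-201 and 15390 bases from the start of Irgm2-203, so it begins beside the start of Igtp and not at the Irgm2 start whose upstream bases are printed. Ifi47 was divided between Ifi47-201, with 49.9% to 79.6%, and Ifi47-202, with 19.4% to 45.7%. Ifi47-202 starts 10452 bases from Ifi47-201, and the RefSeq entry without an ISRE or GAS core lies at the start of the former. In Gbp9, likewise, Gbp9-202 starts 1 base from Gbp8-201, 47 bases from Gbp4-201 and 29263 bases from Gbp9-201.

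**Figure D5:**
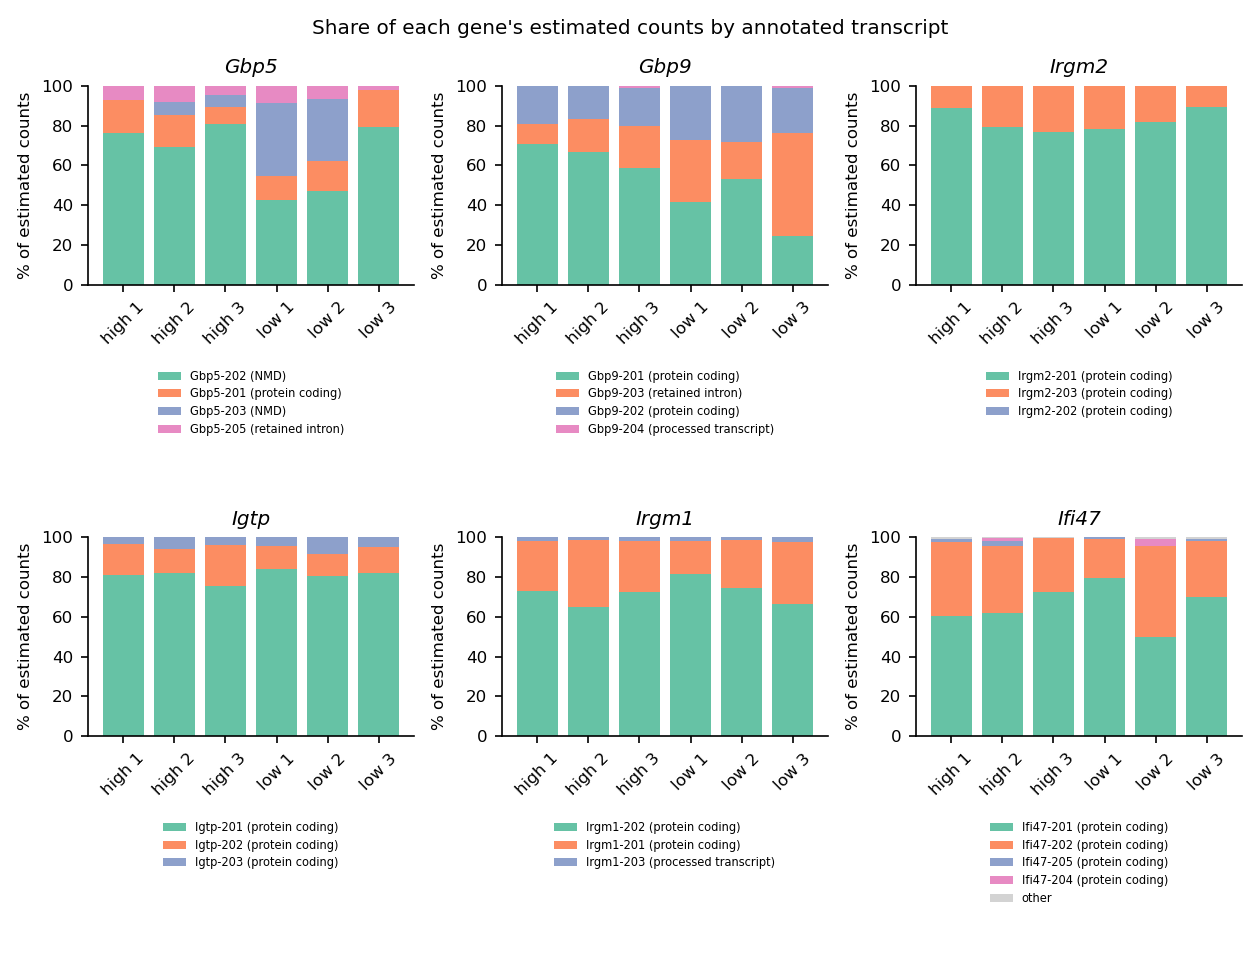
Share of each gene's estimated counts held by its annotated transcripts (vertical axis in percent, 1 stacked bar per library) for Gbp5, Gbp9, Irgm2, Igtp, Irgm1 and Ifi47. Gbp9-201 is smaller in every Ly6C-low bar than in every Ly6C-high bar, and Irgm2-201 holds 77.1% to 89.6% in all 6 libraries.

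Reads that fit several paralogs can also be divided between genes. Of the words of 31 bases in the main transcript, 21.2% were shared with other genes in Gbp9, 16.4% in Igtp, 14.8% in Gbp7 and 11.1% in Irgm2, and 1.21% to 7.05% in Gbp2, Gbp3, Gbp5, Irgm1 and Ifi47. Igtp shared 326 such words with Irgm2, Gbp9 shared 459 with Gbp8, and Gbp7 shared 607 with Gm43802, a predicted gene. A sum over paralogs does not depend on how reads were divided among the genes summed, but it does on reads shared with genes left out, such as Gm43802 and, for Gbp2, Gbp2b. The 4 GBP members of chromosome 3 summed to 240, 234 and 280 CPM in the Ly6C-high and to 233, 221 and 165 CPM in the Ly6C-low libraries. The lowest Ly6C-high sum was just above the highest Ly6C-low sum, and the ratio of means was 1.22 with all libraries and 1.11 without Ly6C-low replicate 3. With Gbp2b added, those ratios were 1.25 and 1.12. The 4 IRG members of chromosome 11 summed to 179, 195 and 212 CPM against 167, 198 and 188 CPM, which overlapped, with a ratio of means of 1.06. Igtp and Irgm2 together gave a ratio of 1.07. These sums were given no test.

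Of the 16 other GBP and IRG genes, 9 stayed under 1 TPM in all 6 libraries, among them Gbp4, Gbp6, Gbp8, Gbp10 and Gbp11, the neighbours of Gbp9 on chromosome 5. With edgeR 8 of the 16 were tested, 0 passed the threshold, 3 were above 0 and 5 below, with a median of -0.092. Gbp2b was the most abundant, at 57.2, 57.6 and 70.7 TPM in the Ly6C-high and 56.3, 57.0 and 39.5 TPM in the Ly6C-low libraries. Its log2 fold change was 0.37 (SE 0.16, edgeR adjusted p = 0.326). It was the 1 gene of the 8 with an unadjusted p under 0.05, against 14.3% of all genes. The other named ones, all IRG genes, were 9930111J21Rik2 with a log2 fold change of -0.15, 9930111J21Rik1 with -0.038, Gm12250 (Irgb10, which acts on bacterial membranes) with -0.30 and Irgq with 0.096. Their adjusted p in edgeR lay between 0.609 and 0.928. Mx1, an antiviral large GTPase, stayed under 1 TPM with a log2 fold change of 0.43 (SE 0.41), and Gvin1 had 0 counts in all libraries.

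Most receptor and signalling genes upstream of the members had measurable transcripts, and most ligands had none. Of 10 interferon genes, 9 had 0 counts in all 6 libraries, Ifng and Ifnb1 among them, and Ifnk reached 0.27 TPM at most. A count of 0 allows up to 3 counts per library, and poly(A) libraries of blood neutrophils do not measure interferon made elsewhere. Ifngr1, a chain of the interferon-gamma receptor, was at 374 to 565 TPM and Irf1 at 82.7 to 157 TPM. Of 20 receptor and signalling genes, Irf8, Ciita and Batf2 stayed under 1 TPM in all libraries. With 17 of the 20 tested, 0 passed the threshold with edgeR, 10 were above 0 and 7 below, and the median was 0.032. The 3 with the smallest p were Usp18, which restrains type I interferon signalling, at a log2 fold change of 0.55 (SE 0.24, edgeR adjusted p = 0.348), Irf9 at 0.22 (SE 0.12) and Stat2 at 0.23 (SE 0.12). The last 2 are subunits of the complex that binds ISRE. Usp18 alone of the 17 had an unadjusted p under 0.05, against 14.3% of all genes. Its TPM overlapped between the groups, at 6.09, 8.32 and 10.8 against 5.37, 7.60 and 4.31. Stat2 was at 12.9, 15.3 and 22.1 TPM in the Ly6C-high and 17.8, 15.2 and 17.99 TPM in the Ly6C-low libraries, also with overlap. The mean TPM of Stat2 was slightly lower in the Ly6C-high libraries, opposite in direction to its fitted value. The TPM of Irf9 overlapped too, with the higher mean in the Ly6C-high libraries.

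In the lists of genes that act on, with or after the members, 0 of the genes passed the threshold with edgeR. An unadjusted p under 0.05 was reached by 14.3% of all genes. The 14 genes of vacuole targeting and ATG8 conjugation, the lipid-tagging machinery that is needed to place IRGs and GBPs on vacuoles, were 7 above and 7 below 0 with a median of -0.0020 and 0 at an unadjusted p under 0.05. Atg7 was at 0.24 (SE 0.12), Tax1bp1 at 0.15 (SE 0.086) and Trim21 at 0.15 (SE 0.11), all on the log2 scale. Of 9 genes of the caspase-11 and AIM2 response 5 were above and 4 below 0, with a median of 0.045. Casp4, which encodes mouse caspase-11, was at 0.23 (SE 0.13) and Casp1 at 0.25 (SE 0.13). Ninj1, which ruptures the plasma membrane in lytic cell death, was the 1 of the 9 with an unadjusted p under 0.05: it was at 40.1, 43.6 and 33.9 TPM in the Ly6C-high and 56.5, 61.9 and 81.9 TPM in the Ly6C-low libraries, without overlap, with a log2 fold change of -0.71 (SE 0.13, edgeR adjusted p = 0.142). Gbp2 and Gbp5 are prenylated at their CaaX ends, and Iigp1 is myristoylated. Of 7 enzymes of prenylation and myristoylation 1 was above and 6 below 0, with a median of -0.044. Icmt, which methylates prenylated ends, was at -0.23 (SE 0.088, edgeR adjusted p = 0.293) and was the 1 of the 7 with an unadjusted p under 0.05, with Nmt2 at -0.53 (SE 0.28) and Rce1 at -0.22 (SE 0.26).

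The libraries held 17192372 to 20973623 estimated counts. Ly6c1 and Ly6c2, which encode the sorting antigen, had log2 fold changes of 3.07 (edgeR adjusted p = 0.0027) and 2.90 (adjusted p = 0.0038). The 12 neutrophil markers summed to 391992 to 395993 TPM in Ly6C-high and 353318 to 377938 TPM in Ly6C-low libraries, most of it S100a9 and S100a8. Of these markers 11 had fitted values above 0 and 1 below, with a median of 0.25. An unadjusted p under 0.05 in edgeR was reached by 4 of them, against 14.3% of all genes. Ly6C-low replicate 3 stood apart from the others on the first principal component, at 38.02 against -19.7 to 3.91.

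Marker sums of other cells moved with the groups in part, and in bulk samples fewer cells of a type and less RNA per cell cannot be told apart. Lymphocytes, NK cells and monocytes make GBPs and IRGs readily. The 7 T cell markers summed to 29.4 to 47.5 TPM in Ly6C-high and 25.8 to 37.3 TPM in Ly6C-low libraries, almost all of it Cd3d, with Trac at 1.15 TPM at most and 4 of 7 under 1 TPM throughout. The 7 NK cell markers, Gzma and Nkg7 the highest, summed to 2.74 to 4.92 against 2.22 to 2.86 TPM, and the 5 B cell markers, Cd79a and Cd79b the highest, to 1.90 to 3.82 against 1.77 to 3.05 TPM. The 9 monocyte markers summed to 103 to 109 against 114 to 131 TPM, most of it Csf1r. The fitted values ran opposite to that sum: 7 of the 8 tested were above 0, with a median of 0.91. Of the 8, 5 had an unadjusted p under 0.05 in edgeR, against 14.3% of all genes. Ccr2 was at a log2 fold change of 0.68 (SE 0.21). The 5 dendritic cell markers, Clec9a and Zbtb46 the highest, summed to 0.37 to 1.78 against 0.81 to 1.45 TPM. The 6 eosinophil markers, Siglecf and Ccr3 the highest, summed to 16.1 to 19.9 against 31.5 to 32.7 TPM, and the 5 basophil markers, Mcpt8 and Prss34 among them, to 2.14 to 3.72 against 6.38 to 29.4 TPM. The basophil sum was highest in Ly6C-low replicate 3, the library with the lowest Gbp2 and Gbp3. The 5 platelet markers, Pf4 and Ppbp the highest, summed to 8.64 to 20.1 against 9.84 to 25.1 TPM. The 6 erythroid markers, Hbb-bs and Hba-a2 the highest, summed to 685 to 2422 against 1729 to 2505 TPM. The erythroid sum was lowest in Ly6C-high replicate 3, the library where all 9 tested members were above their means. Of the 5 carcinoma markers Krt8, Krt18 and Krt19 were at 0 throughout, and Cdh1 and Epcam made up 1.95 to 4.14 against 2.45 to 5.36 TPM. All 13 mitochondrially encoded mRNAs had fitted values above 0, with a median of 0.24, against 49.2% of all genes. The part of these other cells and of RNA quality in the values of the members was not tested.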

How the data were processed

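Poly(A) libraries were made with a strand-marking kit from 100 ng of total RNA with 13 cycles of PCR and read as single ends of 75 cycles, per the labels' design text. Per the submitters' processing notes, the authors used kallisto and the build GRCm39. The version, the index and the strand setting of kallisto were not given in the sources used here, so antisense overlaps cannot be resolved. The deposited tables give estimated counts and TPM for 117486 transcripts, with their lengths, per the file headers.

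Transcripts were assigned to genes with GENCODE M21 (build GRCm38, 99.0% matched), summed per gene and rounded. Gene names, transcript classes and distances between starts come from that annotation. edgeR 4.0.16 in R 4.3.3 was used with filterByExpr, TMM scaling and the robust quasi-likelihood test with group as the term, and p-values were adjusted by Benjamini-Hochberg over all 11406 genes kept, with a threshold of 0.05. The step was tested on simulated data. The common biological coefficient of variation was 13.7%. CPM are TMM-scaled. PCR copies could not be removed, and limits for counts of 0 cover counting error only. Libraries of a group differed by a chi-square per gene of 14.3 to 48.2, above sampling noise, so none was counted as a copy of another.

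The members, the gene lists and the tests were chosen with earlier results of these data known. Genes named are the members, other GBP and IRG genes with a mean of at least 1 TPM, the 3 genes of smallest p in each pathway list, the 2 of highest TPM in each marker list and the 5 genes most like the mean of the members. Other genes given only as levels or as members of a list, and Gbp2b where correlations are given, were chosen for their known roles or after their values were seen. The values of 1 signalling gene are not reported here. The alternatives were the replicate block, DESeq2 size factors, library size alone, no filter, a mean count of at least 10, length-scaled TPM, the DESeq2 1.42.0 Wald test, limma 3.58.1 voom, limma on log2(TPM + 1) and each library left out.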

Additional observations from a re-analysis of the deposited data

How the results depend on the processing

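Under 15 alternatives 0 members passed the threshold, with a smallest adjusted p of 0.149 (edgeR without a filter). The median of the members was -0.0003 to 0.24 when 1 library was left out, lowest without Ly6C-high replicate 3. Of 134 member results under alternatives 121 kept their direction and side of the threshold and 13 changed sign. With library size alone and with log2(TPM + 1), which moved the median of all genes to -0.11 and -0.073, 3 members changed sign but stayed above that median. The log2 fold changes were -0.035 for Irgm1, -0.028 for Irgm2 and -0.044 for Ifi47 with library size alone, and with log2(TPM + 1) they were -0.030, -0.016 and -0.0054. When 1 library was left out, the ranges were -0.023 to 0.55 for Gbp3, -0.015 to 0.49 for Gbp5, -0.022 to 0.27 for Igtp, -0.0003 to 0.13 for Irgm1 and -0.038 to 0.27 for Ifi47. The other members kept their sign. DESeq2 gave no adjusted p for Gbp5.

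The count of all genes past the threshold, 4, moved to 8 with library size alone, 439 without a filter, 2 with length-scaled TPM, 126 with the DESeq2 Wald test and 2 with log2(TPM + 1), and lay between 2 and 22 when 1 library was left out, highest without Ly6C-low replicate 3. The cause was not tested. The labels give both groups replicate numbers 1 to 3 but do not say what a number shares, so the main fit did not take the numbers as pairs. Deviations of same-numbered libraries correlated at 0.24, -0.037 and 0.24, against -0.31 to 0.11 for libraries of unlike numbers. What a number shares cannot be told from these values. With the replicate block 61 genes passed, none of them a member, and 1 member had an unadjusted p under 0.05, against 18.03% of all genes. That count was also 1 with no filter (11.1% of all genes), with Ly6C-high replicate 1 left out (11.4%) and with Ly6C-low replicate 3 left out (11.7%), and 2 with Ly6C-low replicate 1 left out (14.1%).

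Gbp3 and Gbp5 had the fewest estimated counts of the tested members, at 59.0 to 185 per library, and Iigp1 had too few to be tested. How much of the spread of Gbp3 and Gbp5 came from depth was not tested.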
